A study of Mus musculus with 9 samples.

Results

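The 37 genes of the mouse mitochondrial genome, all those whose symbols start with mt-, were followed in muscle of young mice, aged mice and aged mice given GW8510. They were taken by symbol alone from deposited tables of 55536 genes and comprise 13 mRNAs, 2 ribosomal RNAs (rRNAs) and 22 transfer RNAs (tRNAs). RNA sequencing had been done on muscle of male ICR mice, an outbred stock, in 9 libraries. They form 3 groups of 3 libraries. The young vehicle group (libraries 2, 3 and 4) was 2 months old. The aged vehicle group (libraries 1, 3 and 4) was 18 months old. The aged GW8510 group (libraries 1, 3 and 4) was also 18 months old and had received GW8510, a benzenesulfonamide dissolved in sodium carboxymethylcellulose, by intraperitoneal injection at 2 mg/kg once a day for 14 days. The labels do not name the muscle and give no animal for each library, and the p-values below therefore measure the spread between these samples only.

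The mitochondrial genome is a small circle that is copied and transcribed inside the organelle. Each of its strands, named heavy and light, is read as a long precursor, and the tRNAs that lie between the longer genes are cut out to free the mRNAs and rRNAs. The mRNAs encode membrane subunits of the respiratory chain: 7 of complex I (mt-Nd1 to mt-Nd6 and mt-Nd4l), 1 of complex III (mt-Cytb), 3 of complex IV (mt-Co1, mt-Co2, mt-Co3) and 2 of the ATP synthase, complex V (mt-Atp6, mt-Atp8). All other subunits, and every protein that copies, transcribes or processes this genome, come from nuclear genes. Muscle fibres that work by oxidation are rich in mitochondria, and their mitochondrial mRNAs are among the most abundant transcripts of the tissue.

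Library totals ran from 21718965 to 27437970 expected counts, so that 3 counts correspond to 0.109 to 0.138 CPM, counting error only. CPM are counts scaled to library totals, corrected here by TMM, a factor that allows for a few very abundant genes. Markers of the skeletal muscle fibre summed to between 123500 and 184352 CPM in every library, while the 2 liver markers summed to at most 0.133 CPM and the 4 heart markers to at most 7.39 CPM. Aged vehicle library 4 and aged GW8510 library 3 recur below. Aged vehicle 4 had the lowest value of its group for 14 of the 17 measured mitochondrial genes, and aged GW8510 3 had the highest value of all 9 libraries for 14 of the 17.

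Many counts stood at nuclear pseudogenes that are near-identical to mitochondrial genes. A stretch of 4663 bases of chromosome 1 (GRCm38, chr1:24611535-24616197, minus strand) carries 7 annotated unprocessed pseudogenes that follow the order of the mitochondrial genes between chrM:6381 and chrM:11042. Over 4149 aligned bases, 5 of the 7 copies had the same letters as their mitochondrial gene, and the other 2 held 7 substitutions in all. The copy of mt-Co1, Gm29216, covers only the last 492 bases of the gene and holds 6 of them within a run from base 1056 to base 1066 of mt-Co1, counted from the first base of the gene: T1056A, C1057T, A1059G, A1060G, C1062A and A1066T, with the mitochondrial base first. The copy of mt-Nd3, Gm28438, differs by T3C alone. Both windows (mt-Co1 at chrM:6381-6425, plus strand, and Gm29216 at chr1:24616153-24616197, minus strand; mt-Nd3 at chrM:9459-9498, plus strand, and Gm28438 at chr1:24613080-24613119, minus strand) are printed because they hold every base by which reads of these genes can be assigned within the aligned stretches, and capitals mark the bases that differ.
mt-Co1: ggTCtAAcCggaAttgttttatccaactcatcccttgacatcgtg
Gm29216: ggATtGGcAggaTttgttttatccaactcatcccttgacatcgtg
mt-Nd3: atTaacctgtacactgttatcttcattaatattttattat
Gm28438: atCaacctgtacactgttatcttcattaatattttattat

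mt-Atp6, which encodes the subunit a proton channel of the ATP synthase, is the extreme case. Its gene (ENSMUSG00000064357, chrM:7927-8607) had 0 counts in all 9 libraries, which allows at most 3 counts in each. Its copy Gm10925 (chr1:24613974-24614651) had between 91026 and 201502 counts per library. The copy matches the first 678 of the 681 bases of mt-Atp6 letter for letter and lacks only the last 3. The ends of both (chrM:8563-8607, plus strand, and chr1:24613974-24614015, minus strand) are printed for that reason, with the bases that the copy lacks in capitals.
mt-Atp6: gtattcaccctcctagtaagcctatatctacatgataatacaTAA
Gm10925: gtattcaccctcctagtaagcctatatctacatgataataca

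The share of a pair's counts that stayed at the mitochondrial gene differed widely between pairs, and in each pair its ranges overlapped between groups. It was 1.70% to 3.43% for mt-Co2 (copy Gm28661, 681 bases) and 2.65% to 7.99% for mt-Co3 (Gm28437, 783 bases). It was 3.17% to 7.29% for mt-Nd4l (Gm10222, 294 bases) and 11.01% to 17.4% for mt-Nd3 (345 bases). The pairs in which the mitochondrial gene runs far beyond its copy kept most of their counts: 91.8% to 97.4% for mt-Co1, which is 1545 bases long, and 99.9% for mt-Nd4 (Gm28439), of whose 1378 bases the copy covers 876. For mt-Co1 the group means were 96.1% in the young vehicle, 95.6% in the aged vehicle and 93.8% in the aged GW8510 group. Of the 8 other nuclear transcripts that share a run of 50 bases with a mitochondrial gene, none exceeded 40.97 counts in a library. A near-identical copy was taken as one that shares at least 50% of the 50-base runs of the shorter gene. Among annotated nuclear transcripts the rRNAs, mt-Nd1, mt-Nd2, mt-Nd5, mt-Nd6, mt-Cytb and mt-Atp8 have none. Nuclear bases outside annotated transcripts were not searched. Gm28661 and Gm10925 keep the spacing of mt-Co2 and mt-Atp6, and the bases between these copies line up with most of mt-Atp8. For the 7 genes with a copy, values are given below for the gene alone and for gene and copy summed. Transcription of the copies themselves was not tested.

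**Figure D1:**
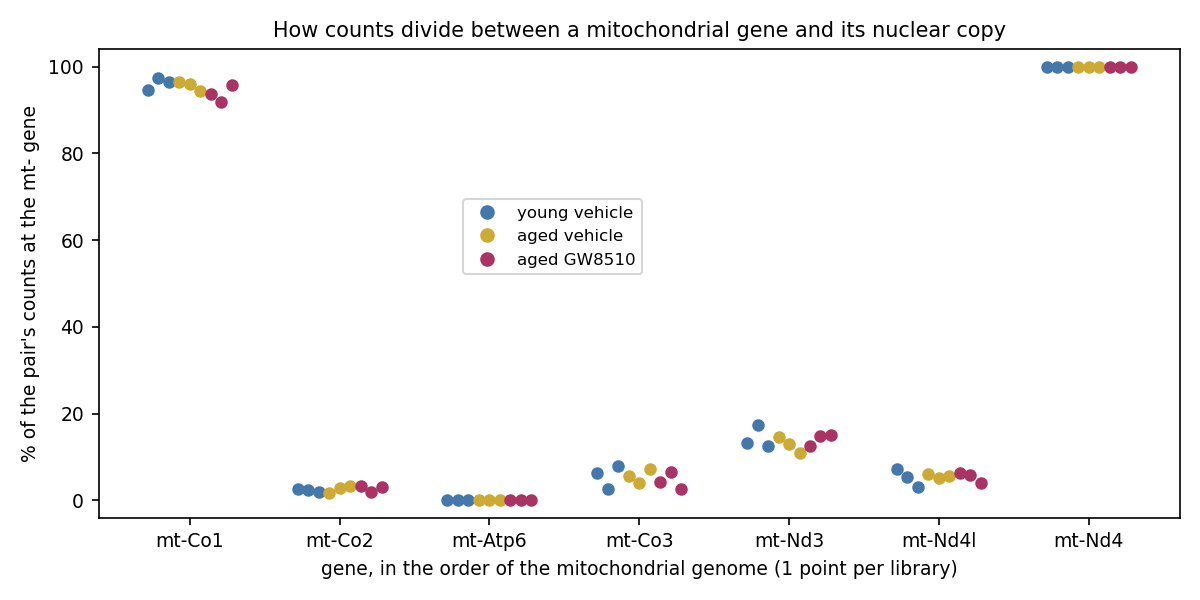
Share of the summed counts of a mitochondrial gene and its nuclear copy that had been assigned to the mitochondrial gene (vertical axis, %), with 1 point per library coloured by group and genes in genome order. mt-Atp6 sits at 0 in all 9 libraries, mt-Co2, mt-Co3, mt-Nd3 and mt-Nd4l lie at or under 17.4%, and mt-Co1 and mt-Nd4 lie at or above 91.8%.

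Of the 37 genes, 17 passed the filter on low counts, namely 12 of the 13 mRNAs, both rRNAs and 3 tRNAs. The lowest count of any of these 17 in any library was 66.5, for mt-Tq, so none passed through 1 group alone. The other 20, mt-Atp6 and 19 tRNAs, had counts too low to measure. Among these, 13 (mt-Atp6 and 12 tRNAs) had no count in any library, and 7 tRNAs reached at most 3.67 counts, in mt-Tn. For mt-Atp6 all counts of the pair stood at Gm10925, so its 0 does not measure the level of its mRNA. All 14 tRNAs annotated on the plus strand were too low, and the 3 that could be measured were among the 8 on the minus strand.

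The measured tRNAs were mt-Tq (glutamine, chrM:3772-3842), mt-Ts1 (serine, chrM:6870-6938) and mt-Tp (proline, chrM:15356-15422). Their genes are printed whole, in sense, since their lengths bear on what was counted. Capitals mark bases shared with a neighbour on the other strand, 3 with mt-Ti in mt-Tq and 3 with mt-Co1 in mt-Ts1.
mt-Tq: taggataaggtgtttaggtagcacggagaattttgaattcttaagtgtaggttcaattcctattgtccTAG
mt-Ts1: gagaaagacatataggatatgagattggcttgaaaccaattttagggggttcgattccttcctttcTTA
mt-Tp: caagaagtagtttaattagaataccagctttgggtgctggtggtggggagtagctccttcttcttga

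The deposited counts and TPM together give the length that had been used for each gene. TPM, a length-corrected abundance, divides a count by an effective length, and in these files that was the transcript length less 254 to 285 bases, depending on the library. A line through 227 nuclear genes with 1 annotated transcript, each between 500 and 5000 bases with at least 500 counts, gave back their annotated length within 10% for 90.3% of them. Among the 17 mitochondrial genes, 11 came back within 10% of their annotated length, for example mt-Nd1 at 957 of 957 bases. The tRNAs did not. mt-Tp came back at 1350 bases against 67 annotated, mt-Ts1 at 895 against 69, and mt-Tq at 823 against 71. mt-Nd5 came back at 4258 bases against 1824, and mt-Nd6 at 759 against 519. If counts and TPM came from the same models, the counts of these 5 genes belong to transcript models longer than the genes they are named for, and values printed under those names are not levels of the mature tRNAs or of the mt-Nd5 and mt-Nd6 mRNAs alone. Which bases the longer models cover was not analysed here. Reads of neighbouring genes, such as mt-Nd4 or mt-Cytb beside mt-Nd5, may therefore have been counted under these 5 names. The counts, levels and fold changes given for such neighbours may then not cover all their reads. mt-Atp8 came back at 273 bases against 204 annotated, and the annotated length is shorter than the length subtracted. The TPM of mt-Atp8 is correspondingly large, 45700 on average in the young vehicle libraries, the highest of the mitochondrial genes. The strand setting of the counting is not given in the sources used here, so reads of mt-Nd6 and of the 3 tRNAs cannot be told apart from reads of the plus strand that crosses them.

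Per length, with copies added and with the implied lengths, the mRNAs of complex IV had the highest levels of the mitochondrial transcripts. These levels are CPM per kilobase, with the copy added where there is one and with the implied length for the 5 genes above. Whole lengths were used, without the 254 to 285 bases subtracted for TPM. This lowers the shortest mRNAs most: mt-Atp8 (204 bases), mt-Nd4l (297) and mt-Nd3 (348), whose places are therefore uncertain. By deposited TPM of the genes alone mt-Atp8 stood at place 1 and mt-Co1 at place 2, so the lead of complex IV over mt-Atp8 rests on this choice. In the young vehicle libraries mt-Co1 had 23271 ± 3659 CPM per kilobase (mean ± SD, n = 3), mt-Co3 19426 ± 2069 and mt-Co2 16859 ± 1080. The next mRNAs were mt-Nd1 at 8540 ± 678, mt-Nd5 at 8073 ± 452, mt-Atp6 at 6334 ± 688 and mt-Nd4 at 6254 ± 362, in the same unit. mt-Cytb had 5875 ± 486 CPM per kilobase, mt-Nd2 5019 ± 493, mt-Nd3 3289 ± 502, mt-Nd4l 2837 ± 579 and mt-Atp8 2172 ± 474. mt-Nd6, the one mRNA of the light strand, had 7.81 ± 1.75 CPM per kilobase. The rRNAs lay below every mRNA except mt-Nd6, at 775 ± 123 CPM per kilobase for mt-Rnr1 and 542 ± 140 for mt-Rnr2. The way rRNA was handled in library preparation is not given in the sources used here.

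The ranges of neighbours overlapped at many steps of this order, among them mt-Co1 and mt-Co3, mt-Co3 and mt-Co2, mt-Nd1 and mt-Nd5, mt-Atp6 and mt-Nd4, and mt-Cytb and mt-Nd2 in the young libraries. The step from mt-Co2, at 16184 CPM per kilobase or more, to mt-Nd1, at 9256 or less, was clear of overlap in that group. By the counts of the mitochondrial genes alone, all per annotated length, mt-Co2 stood at place 13 of 18 rather than 3 and mt-Co3 at place 9 rather than 2. mt-Nd5 then stood at place 2 rather than 5, with 18848 CPM per kilobase, a value above the sum of mt-Co2 and its copy, so the lead of all 3 complex IV mRNAs rests on the implied length as well as on the copies. The order by group mean was the same in the aged groups except that mt-Nd2 and mt-Cytb changed places.

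**Figure D2:**
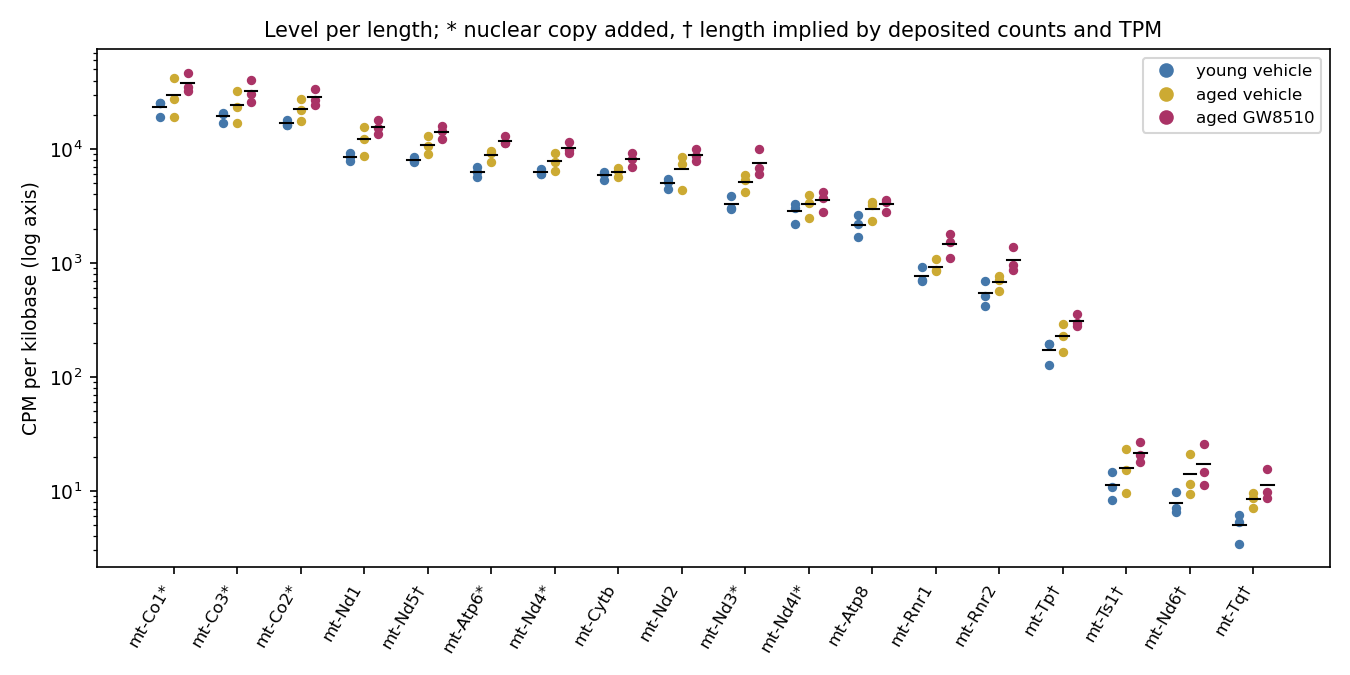
Level per length of the 17 measured mitochondrial genes and mt-Atp6 (CPM per kilobase of whole length, log axis), with 1 point per library, coloured by group, and a bar at each group mean. Asterisks mark genes summed with their nuclear copy and daggers mark the 5 genes for which the implied length was used; the mRNAs of complex IV lead, the rRNA means are 542 and 775 in the young group, and mt-Ts1, mt-Nd6 and mt-Tq lie lowest.

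The mitochondrial share of all counts was lowest in the young libraries and highest under GW8510. The 37 genes took 10.3%, 10.3% and 10.6% of all counts in the young vehicle libraries 2, 3 and 4. They took 12.8%, 16.1% and 10.6% in aged vehicle 1, 3 and 4, and 13.8%, 18.6% and 16.6% in aged GW8510 1, 3 and 4. The Wilson 95% half-widths of these shares were at most 0.0156 percentage points, from counting error only. The young libraries thus differed by little, the aged vehicle group ran from a value within the young range to one above aged GW8510 1, and the GW8510 group lay above all young libraries but overlapped the aged vehicle group. Group means were 10.4% ± 0.208, 13.2% ± 2.78 and 16.4% ± 2.41 (SD, n = 3), ratios of 1.27 for aged over young vehicle, 1.24 for GW8510 over aged vehicle and 1.57 for GW8510 over young vehicle. With the 7 copies added, the means were 13.8% ± 0.253, 17.5% ± 3.68 and 21.96% ± 3.28, and the ratios 1.27, 1.25 and 1.59. On the log2 scale the ratio of 0.34 for age was 0.17 without aged vehicle 3 and 0.48 without aged vehicle 4, and the ratio of 0.31 for GW8510 over aged vehicle was 0.48 and 0.18 without the same libraries and 0.21 without aged GW8510 3. For GW8510 over young vehicle the ratio of 0.65 stayed between 0.55 and 0.76 when any 1 library was left out. In a bulk tissue, a change in the mix of cells or fibres and a change in mitochondrial RNA per cell cannot be told apart.

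**Figure D3:**
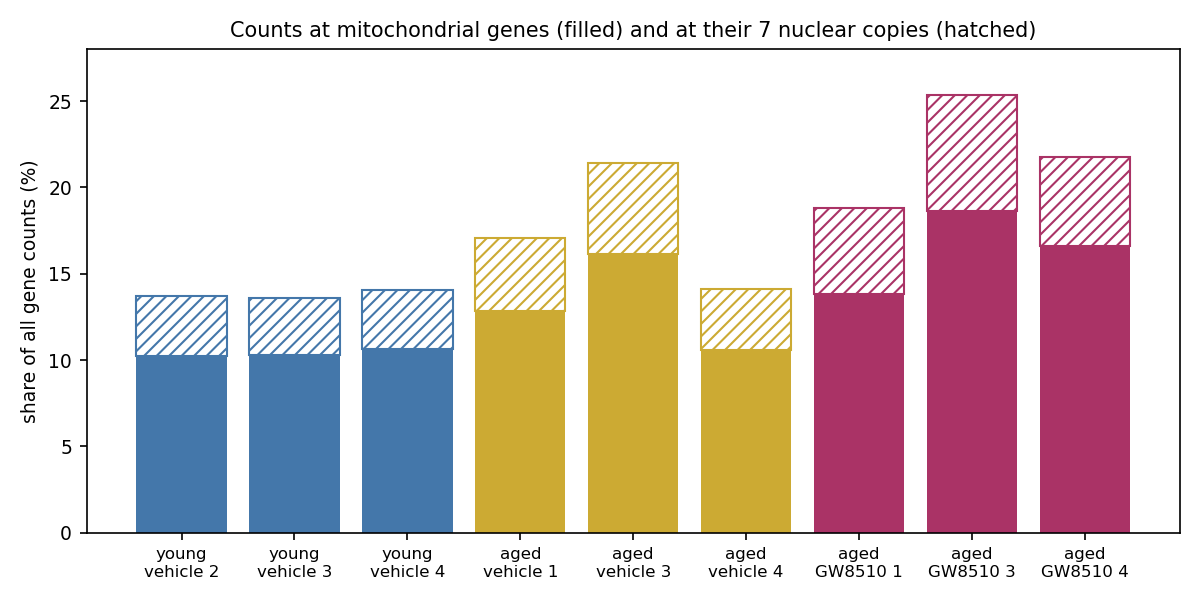
Share of all gene counts (%) at the 37 mitochondrial genes (filled) and at their 7 nuclear copies (hatched, stacked on top) in each of the 9 libraries, coloured by group. The filled bars run from 10.3% to 10.6% in the young vehicle group, from 10.6% to 16.1% in the aged vehicle group and from 13.8% to 18.6% in the aged GW8510 group.

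In aged against young vehicle muscle every measured mitochondrial gene had a positive fold change, and none passed the test. The edgeR quasi-likelihood test with Benjamini-Hochberg adjustment over all genes called 0 of the 17, where 1.22% of the 14384 genes tested were called in either direction. At an unadjusted p under 0.05 there were 3 of 17 (mt-Tq, mt-Nd6 and mt-Co2) beside 19.2% of all genes, and DESeq2 called none of the 17 beside 6.77% of all genes. The median log2 fold change of the 17 was 0.43, beside 0.01 over all genes, of which 51.2% were above 0. In 2 genes, mt-Tq and mt-Nd5, every aged library was above every young one, beside 12.7% of all genes. These genes are cut from shared precursors, so their agreement in sign is not that of independent genes.

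In aged GW8510 against aged vehicle muscle the 17 genes again all had positive fold changes and none passed the test. The edgeR test called 0 of 17, where 0% of all genes were called. At an unadjusted p under 0.05 there were 3 of 17 (mt-Rnr1, mt-Rnr2 and mt-Nd3) and 4.49% of all genes, and DESeq2 called 11 genes (0.0765%), none of them mitochondrial. The median log2 fold change of the 17 was 0.39, beside 0.01 over all genes, of which 50.9% were above 0. In 4 genes (mt-Rnr1, mt-Rnr2, mt-Nd3 and mt-Cytb) every GW8510 library was above every aged vehicle library, beside 3.89% of all genes. Without aged GW8510 3 the median was 0.27 and 14 of 17 were positive, and without aged vehicle 4 it was 0.25 with 15 of 17 positive. Without aged vehicle 3, in contrast, the median was 0.59.

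Between aged GW8510 and young vehicle muscle, groups that differ in both age and treatment, the differences were largest. The edgeR test called 0 of 17, where 0.751% of all genes were called, and the smallest adjusted p was 0.0675, for mt-Nd3. At an unadjusted p under 0.05 there were 14 of 17, beside 16.7% of all genes, and the groups did not overlap in 15 of 17, all but mt-Co3 and mt-Nd4l, beside 12.9% of all genes. The median log2 fold change was 0.86 beside 0.01 over all genes, of which 51.3% were above 0. The count of calls depended on the tool, the filter, the libraries in the fit and 1 library in particular, and the share called over all genes was higher in each of the 4 changes given here than in the fit above. DESeq2 called 10 of the 17 (mt-Rnr1, mt-Rnr2, mt-Nd1, mt-Nd2, mt-Nd3, mt-Nd4, mt-Nd5, mt-Co2, mt-Tq and mt-Tp), beside 6.05% of all genes. Without aged vehicle 4 in the shared estimate of spread edgeR called 5 (mt-Nd1, mt-Nd2, mt-Nd3, mt-Rnr1 and mt-Tp), beside 4.01%. It called 5 of 24 without the filter on low counts (mt-Co2, mt-Nd3, mt-Rnr1, mt-Rnr2 and mt-Tq), beside 2.15%, and 2 with only the 6 libraries compared (mt-Co2 and mt-Nd3), beside 3.35%. Leaving out aged GW8510 3 gave a median of 0.74 with 16 of 17 positive. This comparison shares its young libraries with the age comparison and its GW8510 libraries with the treatment comparison, so the 3 sets of values are not independent.

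**Figure D4:**
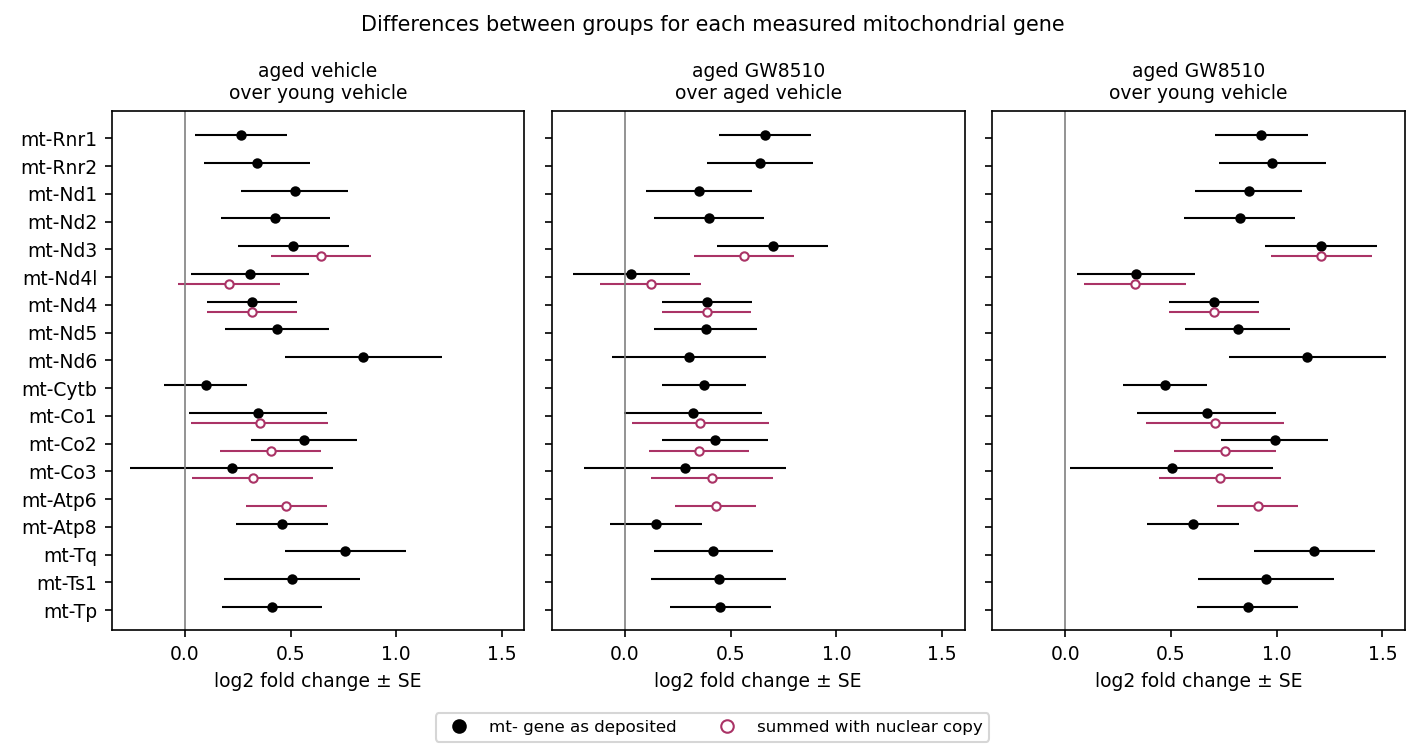
log2 fold change ± SE of each measured mitochondrial gene in the 3 comparisons, from the edgeR fit over all genes with 3 libraries per group. Filled points are the genes as deposited and open points are genes summed with their nuclear copy; all points lie above 0 and none passed an adjusted p of 0.05.

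The rRNAs of the mitochondrial ribosome were higher under GW8510 than in either vehicle group. mt-Rnr1, the small-subunit rRNA (chrM:70-1024), had 679, 667 and 876 CPM in the young libraries, 1028, 810 and 832 in the aged vehicle libraries and 1461, 1715 and 1051 under GW8510. All GW8510 values lay above all vehicle values, though aged GW8510 4 was close to aged vehicle 1. The log2 fold change was 0.27 ± 0.22 (SE) for age, 0.66 ± 0.22 for GW8510 over aged vehicle and 0.93 ± 0.22 for GW8510 over young vehicle (edgeR, Benjamini-Hochberg adjusted p 0.524, 0.934 and 0.0772). mt-Rnr2, the large-subunit rRNA (chrM:1094-2675), had 816, 659 and 1095 CPM in the young libraries, 1220, 1131 and 907 in the aged vehicle libraries and 1509, 2197 and 1363 under GW8510. Its young and aged vehicle values overlapped while the GW8510 values stood above both, with log2 fold changes of 0.34 ± 0.25, 0.64 ± 0.25 and 0.98 ± 0.25 (edgeR, adjusted p 0.472, 0.934 and 0.0931).

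Among complex I subunits, mt-Nd1 and mt-Nd2 lie next to the rRNAs on the genome. mt-Nd1 (chrM:2751-3707), a subunit of the proton-pumping arm, had 8092, 7568 and 8858 CPM in the young libraries, 11772, 15028 and 8340 in the aged vehicle libraries and 12999, 17097 and 14634 under GW8510. Aged vehicle 4 fell within the young range and aged vehicle 3 above the GW8510 libraries 1 and 4. The log2 fold changes were 0.52 ± 0.25, 0.35 ± 0.25 and 0.87 ± 0.25 for age, treatment and both (edgeR, adjusted p 0.294, 0.934 and 0.125). mt-Nd2 (chrM:3914-4951), also of the membrane arm, had 4641, 5355 and 5632 CPM, then 7654, 8802 and 4578, then 8104, 10469 and 9107 in the same order of libraries. Aged vehicle 4 was here the lowest of the 9, and the log2 fold changes were 0.43 ± 0.26, 0.40 ± 0.26 and 0.82 ± 0.26 (edgeR, adjusted p 0.385, 0.934 and 0.154).

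mt-Nd3, a small complex I subunit near the quinone site (chrM:9459-9806), had the largest fold change of the measured mRNAs for GW8510 over young vehicle. Summed with Gm28438 it had 1052, 1036 and 1346 CPM in the young libraries, 1868, 2049 and 1457 in the aged vehicle libraries and 2362, 3480 and 2106 under GW8510. None of the 3 groups overlapped another. For the sum, log2 fold changes were 0.65 ± 0.24 for age, 0.56 ± 0.24 for treatment and 1.21 ± 0.24 for GW8510 over young vehicle (edgeR, adjusted p 0.192, 0.935 and 0.0561). The gene alone, with 140 to 180 CPM in the young, 160 to 271 in the aged vehicle and 298 to 513 in the GW8510 libraries, gave 0.51, 0.70 and 1.21. mt-Nd4l (chrM:9877-10173), which shares 7 bases with mt-Nd4, differed little between groups. Its sum with Gm10222 was 902, 649 and 977 CPM, then 1003, 1180 and 741, then 832, 1103 and 1245, and all groups overlapped. Fold changes of that sum were on the log2 scale 0.21 ± 0.24, 0.12 ± 0.24 and 0.33 ± 0.24 (edgeR, adjusted p 0.660, 0.974 and 0.521). mt-Nd4l alone ran from 31.0 to 65.8 CPM in the young, from 41.5 to 62.3 in the aged vehicle and from 51.3 to 63.9 in the GW8510 libraries and gave 0.31, 0.03 and 0.34.

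mt-Nd4 (chrM:10167-11544) and mt-Nd5 (chrM:11742-13565) encode large antiporter-like subunits of complex I. mt-Nd4 alone had 8314, 8331 and 9185 CPM in the young libraries, 10600, 12737 and 8867 in the aged vehicle libraries and 12639, 15818 and 13620 under GW8510. The young group was tight, aged vehicle 4 lay inside its range, and the log2 fold changes were 0.32 ± 0.21, 0.39 ± 0.21 and 0.70 ± 0.21 (edgeR, adjusted p 0.431, 0.934 and 0.138). Summed with Gm28439 it gave the same values to 2 decimals. mt-Nd5, whose implied length exceeds the gene, had 32863, 33731 and 36542 CPM, then 45417, 55697 and 38341, then 52295, 68020 and 61272. The aged vehicle values all exceeded the young ones, and aged GW8510 1 was below aged vehicle 3. The log2 fold changes were 0.44 ± 0.25, 0.38 ± 0.25 and 0.82 ± 0.25 (edgeR, adjusted p 0.355, 0.934 and 0.137). mt-Nd6 (chrM:13552-14070, minus strand), which overlaps mt-Nd5 by 14 bases, had 5.40, 4.94 and 7.45 CPM, then 8.72, 16.1 and 7.18, then 11.2, 19.6 and 8.59. It was counted at between 117 and 443 counts per library, with log2 fold changes of 0.84 ± 0.37, 0.30 ± 0.36 and 1.15 ± 0.37 (edgeR, adjusted p 0.251, 0.951 and 0.163).

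mt-Cytb (chrM:14145-15288), the one mitochondrial subunit of complex III, hardly differed with age in the counts under its name. It had 7173, 6101 and 6889 CPM in the young libraries, 6463, 7836 and 7295 in the aged vehicle libraries and 8019, 10586 and 9384 under GW8510. Both vehicle groups overlapped, and the GW8510 libraries lay above them all. The log2 fold changes were 0.10 ± 0.20, 0.37 ± 0.20 and 0.47 ± 0.20 (edgeR, adjusted p 0.817, 0.934 and 0.266).

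The catalytic core of cytochrome c oxidase, complex IV, is made of mt-Co1, mt-Co2 and mt-Co3. mt-Co1 (chrM:5328-6872), which binds the oxygen-reducing centre, had with Gm29216 29438, 38869 and 39555 CPM in the young libraries, 42634, 65433 and 29856 in the aged vehicle libraries and 49744, 72256 and 54506 under GW8510. Aged vehicle 4 lay within the young range and aged vehicle 3 above 2 of the GW8510 libraries. The log2 fold changes of the sum were 0.35 ± 0.32, 0.36 ± 0.32 and 0.71 ± 0.33 (edgeR, adjusted p 0.571, 0.940 and 0.310). The gene alone, with 27846 to 38166 CPM in the young, 28218 to 62729 in the aged vehicle and 46544 to 66345 in the GW8510 libraries, gave 0.35, 0.32 and 0.67. mt-Co2 (chrM:7013-7696), the copper-bearing subunit that accepts electrons from cytochrome c, had with Gm28661 11141, 11070 and 12384 CPM, then 14947, 18885 and 12016, then 16678, 23184 and 18579. Its log2 fold changes were 0.41 ± 0.24, 0.35 ± 0.24 and 0.76 ± 0.24 (edgeR, adjusted p 0.373, 0.935 and 0.156). mt-Co2 alone had 295, 274 and 239 CPM in the young libraries, 254, 551 and 389 in the aged vehicle libraries and 572, 478 and 556 under GW8510. Aged vehicle 1 lay within the young range, and the gene alone gave 0.56 ± 0.25, 0.43 ± 0.25 and 0.99 ± 0.25 (edgeR, adjusted p 0.258, 0.934 and 0.0918).

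mt-Co3 (chrM:8607-9390), a membrane subunit without metal centres, had most of its pair's counts at the copy. Alone it had 854, 423 and 1309 CPM in the young libraries, 1026, 1018 and 971 in the aged vehicle libraries and 1007, 2107 and 553 under GW8510, with overlap everywhere. Summed with Gm28437 it had 13373, 15940 and 16376 CPM, then 18192, 25564 and 13292, then 23829, 31682 and 20418, so that the GW8510 and young groups no longer overlapped. For the sum, log2 fold changes were 0.32 ± 0.29, 0.41 ± 0.29 and 0.73 ± 0.29 (edgeR, adjusted p 0.563, 0.935 and 0.241). The gene alone gave 0.22, 0.28 and 0.50, each with a standard error of 0.48.

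mt-Atp8 and mt-Atp6 of the ATP synthase lie on 1 mRNA in the cell and overlap by 43 bases. The end of mt-Atp8 (chrM:7917-7969, plus strand) is printed with the overlap in capitals, since a read within it fits either gene.
mt-Atp8 end: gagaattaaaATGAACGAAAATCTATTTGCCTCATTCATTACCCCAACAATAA
mt-Atp8 (chrM:7766-7969) has no near-identical copy among annotated nuclear transcripts. It had 451, 343 and 535 CPM in the young libraries, 659, 694 and 474 in the aged vehicle libraries and 577, 706 and 737 under GW8510. The aged groups overlapped, and the log2 fold changes were 0.46 ± 0.22, 0.15 ± 0.22 and 0.60 ± 0.22 (edgeR, adjusted p 0.285, 0.958 and 0.199). mt-Atp6 summed with Gm10925, which held all counts of the pair, had 4309, 3847 and 4784 CPM, then 6326, 6518 and 5211, then 7676, 8914 and 7726, and none of the 3 groups overlapped another. Its log2 fold changes were 0.48 ± 0.19, 0.43 ± 0.19 and 0.91 ± 0.19 (edgeR, adjusted p 0.219, 0.935 and 0.0637). With copies summed, a choice made after seeing the data, edgeR tested 18 mitochondrial genes and called 0 in each comparison, where it called 1.21%, 0% and 0.75% of all genes.

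**Figure D5:**
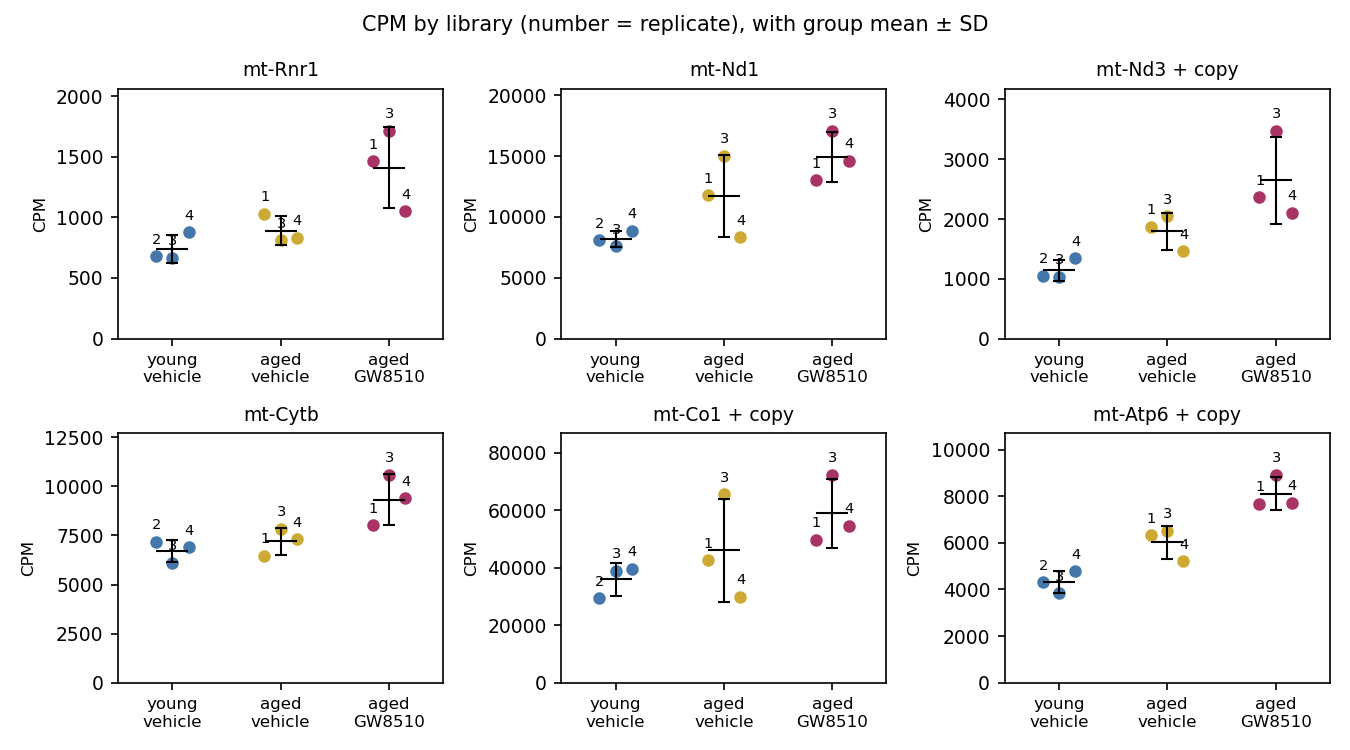
CPM in each library (points labelled by replicate number) with the group mean ± SD, for mt-Rnr1, mt-Nd1 and mt-Cytb as deposited and for mt-Nd3, mt-Co1 and mt-Atp6 summed with their nuclear copies. For mt-Nd3 and mt-Atp6 no group overlaps another; for mt-Nd1 and mt-Co1 aged vehicle 4 lies within the young range and aged vehicle 3 above 2 of the GW8510 libraries.

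The 3 measured tRNA genes, whose implied lengths exceed the genes, had group means in the same order. mt-Tq had 5.06, 2.83 and 4.41 CPM in the young libraries, 7.09, 7.93 and 5.84 in the aged vehicle libraries and 7.98, 12.7 and 7.16 under GW8510. Neither aged group overlapped the young one, and the log2 fold changes were 0.76 ± 0.29, 0.42 ± 0.28 and 1.18 ± 0.29 (edgeR, adjusted p 0.1997, 0.934 and 0.0848). mt-Ts1 ran from 7.45 to 13.1 CPM in the young, from 8.57 to 20.8 in the aged vehicle and from 15.97 to 24.0 in the GW8510 libraries. mt-Tp ran from 173 to 262, from 226 to 391 and from 378 to 484 CPM in the same groups. The log2 fold changes of GW8510 over young vehicle were 0.95 ± 0.32 and 0.86 ± 0.24 (edgeR, adjusted p 0.176 and 0.110).

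The make-up of the mitochondrial RNA overlapped between groups in most measures. These measures take counts under the genes' names. mt-Nd5, with the highest counts of the complex I mRNAs, and mt-Nd6 had implied lengths beyond their genes. The mRNA totals, the complex shares and the mt-Nd6 ratio may therefore not be those of the named mRNAs alone. The rRNAs had 1.60 ± 0.257 counts per 100 mRNA counts in the young, 1.58 ± 0.354 in the aged vehicle and 1.87 ± 0.330 in the GW8510 group (SD, n = 3), and the ranges overlapped. With copies added, complex I mRNAs made up 44.1% ± 1.64, 46.0% ± 2.32 and 45.8% ± 1.89 of the mitochondrial mRNA counts, and complex IV mRNAs 47.2% ± 2.68, 45.8% ± 3.81 and 46.1% ± 2.23. mt-Cytb, the complex III mRNA, made up 5.10% ± 0.694, 4.33% ± 1.098 and 4.17% ± 0.2004, and the complex V mRNAs 3.59% ± 0.393, 3.93% ± 0.581 and 3.94% ± 0.281. The ranges of the 3 groups overlapped for complexes I, IV and V, while for complex III the young libraries, at 4.59% or more, lay above the GW8510 libraries, at 4.399% or less. mt-Nd6 had 5.92 ± 0.994, 8.01 ± 1.49 and 7.77 ± 2.45 counts per 100000 counts of the other 12 mRNAs. Its values in the aged vehicle libraries, 6.96, 9.71 and 7.34, lay above the young ones, 5.94, 4.92 and 6.91, while GW8510 values of 7.83, 10.2 and 5.30 overlapped both.

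Nuclear genes that work on the mitochondrial genome were read from the same fit, and none passed the test in any comparison. Of all genes tested, 1.22%, 0% and 0.751% were called for age, for GW8510 over aged vehicle and for GW8510 over young vehicle. At these shares, 0 calls in lists of this size does not set the lists apart. Of all genes, 51.2%, 50.9% and 51.3% had positive log2 fold changes, with a median of 0.01 in each comparison. Of 50 genes for synthesis, processing, modification and stability of mitochondrial RNA, 35, 23 and 35 had positive log2 fold changes for age, for GW8510 over aged vehicle and for GW8510 over young vehicle, with medians of 0.17, -0.01 and 0.18. For age the smallest p values were those of Tfb2m, a factor that melts the promoter for the polymerase, at a log2 fold change of 0.52 ± 0.16, and of Rexo2, an exonuclease for short RNA, at 0.69 ± 0.29 (edgeR, adjusted p 0.139 and 0.237). For GW8510 over aged vehicle they were Mterf1b, of the transcription termination factor family, at -1.26 ± 0.49, and Elac2, which cuts the 3′ ends of tRNAs, at -0.48 ± 0.21 (edgeR, adjusted p 0.934 for both). For GW8510 over young vehicle they were Mterf2, of the same termination factor family, at 0.65 ± 0.19, and Slirp, which stabilises mitochondrial mRNAs, at 0.65 ± 0.21 (edgeR, adjusted p 0.132 and 0.161). Of 21 genes for replication and copy number of mitochondrial DNA, 11, 13 and 12 were positive, with medians of 0.01, 0.12 and 0.13. Slc25a33, a pyrimidine nucleotide carrier of the mitochondrial inner membrane, had 12.1 ± 0.808 CPM in the young, 19.2 ± 4.82 in the aged vehicle and 23.2 ± 3.35 in the GW8510 group, with a log2 fold change of 0.66 ± 0.19 for age and of 0.94 ± 0.20 for GW8510 over young vehicle (edgeR, adjusted p 0.125 and 0.0621). Second in this list by p were Polg, the catalytic subunit of the replicative polymerase, for age, at -0.33 ± 0.14, and Lig3, the ligase that seals mitochondrial DNA, for GW8510 over young vehicle, at -0.64 ± 0.24 (edgeR, adjusted p 0.240 and 0.214). For GW8510 over aged vehicle the list's smallest p values were those of Lig3, at -0.47 ± 0.24, and of the mitochondrial nuclease Endog, at 0.48 ± 0.27 (edgeR, adjusted p 0.934 for both).

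Of 76 nuclear-encoded subunits that assemble with the mitochondrial ones none passed the test, beside 1.22%, 0% and 0.751% of all genes. The median log2 fold changes of the 76 were 0.06, 0.27 and 0.34 in the 3 comparisons. Those of the 17 mitochondrial genes were 0.43, 0.39 and 0.86, and the median over all genes was 0.01 in each. Positive were 52, 76 and 74 of the 76, beside 51.2%, 50.9% and 51.3% of all genes. The smallest p values belonged to Cox7b (-0.47 ± 0.27) and Ndufb3 (0.33 ± 0.20) for age and to Ndufa9 (0.38 ± 0.22) and Atp5b (0.31 ± 0.19) for GW8510 over aged vehicle, subunits of complexes IV, I, I and V (edgeR, adjusted p 0.364, 0.372, 0.934 and 0.934). For GW8510 over young vehicle they were Ndufb3, at 0.61 ± 0.20, and Cox6a2, the muscle isoform of a complex IV subunit, at 0.51 ± 0.20 (edgeR, adjusted p 0.163 and 0.239). The difference between these lists was not tested.

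Markers of other cells and fibre types also differed between libraries. The 8 slow oxidative fibre markers summed to 76.7 to 114 CPM in the young, 53.1 to 147 in the aged vehicle and 74.4 to 303 in the GW8510 libraries. The lowest of these was aged vehicle 4. The 2 highest, 303 and 147, were aged GW8510 3 and aged vehicle 3, the libraries with the highest mitochondrial share of their groups. Aged GW8510 4, with a mitochondrial share of 16.6% against 16.1% in aged vehicle 3, had a sum of 86.4 CPM. That was below the 114 CPM of young vehicle 4, whose share was 10.6%. In aged GW8510 3, Myl3 alone had 119 CPM. The 5 adipocyte markers summed to 156 to 195, 139 to 189 and 246 to 367 CPM, without overlap between the GW8510 libraries and the others. Most of each sum was Fabp4, at 135 to 366 CPM, the only 1 of the 5 to separate GW8510 from both vehicle groups. Adipoq had 1.41, 0.531 and 18.7 CPM in aged GW8510 1, 3 and 4 against 2.41 to 5.91 in the young libraries. The 5 fibroblast markers summed to 1131 to 2505 CPM in the young libraries against 67.1 to 456 and 202 to 495 in the aged ones. Only 3 of them, the collagens Col1a1, Col1a2 and Col3a1, were lower in every aged library than in every young one. Pdgfra and Dcn overlapped between the young and both aged groups. The 4 endothelial markers summed to 248 to 287 CPM in the young libraries against 152 to 204 and 174 to 302 in the aged ones. Of the 4 heart markers Myl7 was at 0 in all libraries. The set summed to 1.47 to 2.83 CPM in the young and 0.545 to 3.27 in the aged vehicle libraries. Under GW8510 it summed to 2.59 to 7.39, highest in aged GW8510 3. Nppa was above the young values in all GW8510 and all aged vehicle libraries, but its levels were low. It had 0 to 0.0845 CPM in the young, 0.182 to 1.30 in the aged vehicle and 0.442 to 1.27 in the GW8510 libraries. Myh6 and Tnni3 overlapped between groups. Red cell markers ran from 3.18 to 606 CPM without separating the groups. The part of these cells in the mitochondrial values was not tested.

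In the authors' deposited table, 15 of the 17 measured mitochondrial genes had an adjusted p under 0.05 for GW8510 over young vehicle, the smallest being 4.26e-08, beside 5.24% of the 24274 genes tested there. The authors' deposited table marks 3 of them, mt-Nd3, mt-Nd6 and mt-Tq, as significant, beside 3% of all genes. For the other comparisons the authors' deposited tables give 0 of 17, with smallest adjusted p of 0.153 for age and 0.998 for GW8510 over aged vehicle, beside 3.32% and 0.0246% of all genes. All 17 log2 fold changes are positive in each of the authors' deposited tables.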

How the data were processed

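The data are 9 muscle RNA-seq libraries in 3 groups of 3. The authors deposited expected counts, which are not normalized (91.4% are whole numbers), and TPM values per gene and library. The authors' deposited tables also give fold ratios, log2 fold changes and p-values with adjusted p-values, and a gene length and other annotation deposited with them. The submitters' processing notes name GRCm38, CASAVA, HISAT2, StringTie, RSEM, DESeq2 and edgeR, without roles or versions. The annotation used for counting and its strand setting are not given in the sources used here.

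GENCODE M21 (GRCm38) held all 55536 gene IDs and supplied coordinates, strands and sequences. Counts were rounded, filtered with filterByExpr (14384 genes kept), scaled with TMM and tested in R 4.3.3 with the quasi-likelihood test of edgeR 4.0.16, all 9 libraries in 1 fit, two-sided, Benjamini-Hochberg adjustment over all genes, threshold 0.05. Standard errors were derived from each log2 fold change and its F statistic. On simulated counts with known changes the test was checked for each comparison. Totals were 21718965 to 27437970 counts, and a floor of 3 counts covers counting error only.

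Near-identical copies were sought by shared runs of 50 bases between mitochondrial genes and nuclear transcripts. Implied lengths came from counts over TPM. Levels by group are mean ± SD. All members were named; of each gene list, those past the threshold or, where none passed, the 2 with the smallest p. The members and lists were chosen with earlier results of these data known. Alternatives were DESeq2 1.42.0, no filter, only the 6 libraries compared, a replicate block, other scalings, overlapping genes summed and each library left out. Summing copies, scaling without genes and copies, and adding copies to the share were chosen after seeing the data.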

Additional observations from a re-analysis of the deposited data

How the results depend on the processing

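The positive direction of single mitochondrial genes held in 904 of 912 values over 18 alternatives. The 8 that turned negative were, for age, mt-Co3 at -0.10 without young vehicle 3 (range with 1 library left out -0.10 to 0.66). For GW8510 over aged vehicle they were mt-Atp8 at -0.016 and mt-Nd4l at -0.14 without aged vehicle 4, mt-Co3 at -0.37, mt-Nd4l at -0.08 and mt-Nd6 at -0.11 without aged GW8510 3, and mt-Nd4l at -0.027 with library totals without TMM. With 1 library left out these reached 0.25 for mt-Atp8, 0.13 for mt-Nd4l, 0.63 for mt-Co3 and 0.72 for mt-Nd6 at most. For GW8510 over young vehicle it was mt-Co3 at -0.14 without aged GW8510 3, and 0.94 at most. The cause was not tested.

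Mitochondrial genes called for GW8510 over young vehicle were 10 with DESeq2, 5 without the filter, 2 (mt-Co2 and mt-Nd3) with only the 6 libraries compared and 0 to 5 when a library was left out, against 0. Calls over all genes for age, against 175, were 974 with DESeq2, 699 without the filter, 50 with only the 6 libraries and 19 to 148 with a library left out. For GW8510 over aged vehicle, against 0, they were 11, 5 and 0, and 0 to 2 with a library left out. For GW8510 over young vehicle, against 108, they were 870, 553 and 469, and 25 to 595 with a library left out. In that comparison 44.4% of calls were higher, and 34.4% with library totals without TMM. The mitochondrial share of deposited TPM gave a log2 ratio of 0.47 for GW8510 over young vehicle, against 0.65 for counts.

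No pairing by replicate number was seen: deviations of same-numbered libraries correlated at -0.21 to 0.14 (7 pairs) and of others at -0.23 to 0.27 (20 pairs). With 3 libraries per group these correlations cannot exclude a pairing. With the replicate block the test called 5 genes for age, 0 for treatment and 8 for GW8510 over young vehicle, and 0 mitochondrial genes in each.

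Depth was enough to measure 17 genes, whose lowest count was 66.5, but 20 genes could not be measured. The part of depth in the standard errors of the genes with low counts, such as mt-Tq and mt-Nd6, was not tested.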
